A study of Canis lupus familiaris with 29 samples.

Results

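Autotaxin, the receptors of lysophosphatidic acid (LPA) and the phosphatases that break LPA down were followed as 9 named genes: ENPP2, LPAR1 to LPAR6, PLPP1 and PLPP3. Of these, 8 were found by name among the 30951 genes of the count table, and LPAR5 was not analysed here. The set was chosen by a measured pattern of its first gene: ENPP2 was selected on its lower counts in tumors than in normal adrenal medullas, and in 1 tumor group than in the other, and the other genes were added for their roles around it. The differences of ENPP2 between the groups are therefore given as a description. RNA was sequenced from normal adrenal medullas (NAMs) of 10 healthy research dogs, which had not been killed for this work. The tumors sequenced were 19 pheochromocytomas and paragangliomas (PPGLs) of client-owned dogs, all but 1 of them pheochromocytomas. PPGL group 1 held 7 of these tumors and PPGL group 2 the other 12. The authors drew the groups from a principal component analysis of the same libraries, after outlying tumors had been left out. A p-value between those groups therefore only describes the split. NAMs came from research dogs and PPGLs from patients of several clinics, so origin and tissue cannot be told apart; ages and breeds were not used here.

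Autotaxin is a secreted lysophospholipase D, encoded by ENPP2, that cuts lysophosphatidylcholine outside the cell and so releases LPA. LPA acts on G protein-coupled receptors that signal through several G protein families to the cytoskeleton, calcium and cell growth, and it is removed at the cell surface by lipid phosphate phosphatases such as PLPP1 and PLPP3. The adrenal medulla holds the catecholamine-producing chromaffin cells from which pheochromocytomas arise, and it is enclosed by the steroid-producing adrenal cortex.

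The summed gene counts of a library ranged from 19258054 to 35918182 in NAMs, from 18493540 to 31919833 in PPGL group 1 and from 18208718 to 24569667 in PPGL group 2. Levels are given as CPM, counts scaled to a common library size after normalization by the trimmed mean of M-values (TMM). The smallest level that the depth of a library can show, taken as 3 counts, was 0.0779 to 0.175 CPM and covers counting error only.

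The libraries were compared with markers of their labelled tissue before the genes were read. Of 12 chromaffin markers, 11 were found by name, and CHGA was not analysed here. CHGB, a granule protein of chromaffin cells, was the most abundant of them in each group. TH, the rate-limiting enzyme of catecholamine synthesis, was between 1057 and 5971 CPM in NAMs. It was 2.15 CPM in tumor 5 and 10.8 CPM in tumor 3 of PPGL group 1, and 32.3 CPM in tumor 7 of PPGL group 2. Tumor 7 of group 1 held TH at 1382 CPM but CHGB at 27.1 CPM, against at least 5688 CPM in every NAM. These 4 tumors were the farthest below the NAMs in TH or CHGB. TH was also below every NAM in tumor 1 of group 1 (863 CPM) and tumor 11 of group 2 (859 CPM), and PNMT, the enzyme that makes epinephrine, was below every NAM in 18 of 19 tumors. Of the 11 chromaffin markers, 3 were called higher in PPGLs (PHOX2A, SYP and CYB561) and 1 lower (PNMT), where 22.3% and 15.2% of all genes were. Their median log2 FC was 0.57. PHOX2A was above every NAM in all 19 tumors, a separation that 0.223% of genes had. Its log2 FC was 2.17 ± 0.24 (SE, edgeR adjusted p = 1.75e-07). Tumor 11 of group 2 had the highest summed level of the fibroblast and mural markers, 28822 CPM, against at most 7161 CPM in any other tumor of its group.

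NAMs also held RNA of the adrenal cortex. Of 10 cortical markers, 9 were found by name, and their summed level was 12630 to 61818 CPM in NAMs, 21.6 to 1135 CPM in PPGL group 1 and 201 to 31112 CPM in PPGL group 2. The most abundant was CYP17A1, a steroid hydroxylase, in NAMs (11981 CPM on average) and in group 2 (2428 CPM), and STAR, which carries cholesterol into mitochondria, in group 1 (343 CPM). No cortical marker was at 0 in all samples of a group, but CYP11A1, which starts steroid synthesis, had no count in tumors 3 and 7 of group 1. The cortex score, the mean log2 CPM of the 9 markers, was 9.49 ± 0.73 (SD, n = 10) in NAMs, 0.25 ± 1.73 (SD, n = 7) in group 1 and 6.22 ± 1.93 (SD, n = 12) in group 2. In bulk tissue, fewer cells of a type and less RNA per cell cannot be told apart.

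Positions are those of CanFam3.1. ENPP2 (ENSCAFG00000000865) lies on chromosome 13 from 18587129 to 18697324 on the minus strand. PLPP1 (ENSCAFG00000006838) lies on chromosome 2 from 42763026 to 42854802 on the minus strand, and 108 of its 2261 exonic bases are shared with MTREX on the opposite strand. PLPP3 (ENSCAFG00000028754) lies on chromosome 5 from 52923833 to 53005493 on the plus strand. The receptor genes are scattered over other chromosomes. LPAR1 (ENSCAFG00000002978) lies on chromosome 11 from 65692973 to 65822312, and LPAR2 (ENSCAFG00000014181) on chromosome 20 from 43647653 to 43650710. LPAR3 (ENSCAFG00000020300) lies on chromosome 6 from 63035746 to 63113251, overlapping the span of MCOLN2 but with no shared exonic base. LPAR4, on the X chromosome from 60838170 to 60839282, and LPAR6 (ENSCAFG00000029700), on chromosome 22 from 3111462 to 3112499 and overlapping the span of RB1, each have a single exon of 1113 and 1038 bases. Both lengths are multiples of 3, so they were taken as coding length, and reads of their untranslated regions were not counted. The libraries were stranded, but the sources used here do not give the strand setting of the counting, so whether the values of PLPP1 include reads of MTREX is not known.

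ENPP2 was among the most abundant transcripts of the NAMs and ranked far lower in PPGL group 1. In NAMs its lowest level was 578 CPM, its median 3855 CPM and its highest 7868 CPM. In PPGL group 2 the lowest, median and highest levels were 47.0, 268 and 1736 CPM, and in PPGL group 1 they were 1.81, 6.00 and 18.0 CPM. Every tumor of group 1 lay below every tumor of group 2 and every NAM, while group 2 overlapped the NAMs only through NAM 4, the lowest NAM, and tumors 1, 2 and 10. A separation of this kind, lower in group 1 than in group 2, was seen for 0.15% of the genes tested, and lower in group 1 than in NAMs for 4.2%, and since ENPP2 was chosen for the pattern nothing is read from these shares. By CPM among the 30951 genes, ENPP2 ranked between 7 and 132 in NAMs, between 35 and 4362 in group 2 and between 7758 and 12326 in group 1. It took 0.788% of all counts in NAM 1, the highest sample, and 0.000218% in tumor 7 of group 1, the lowest.

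The mean level of ENPP2 was 3897 ± 2038 CPM (SD, n = 10) in NAMs, 439 ± 507 CPM (SD, n = 12) in PPGL group 2 and 9.23 ± 6.01 CPM (SD, n = 7) in PPGL group 1. The log2 fold change (log2 FC) of edgeR's quasi-likelihood fit, negative where the first group is lower, was -3.79 ± 0.78 (SE) for PPGLs against NAMs. It was -8.73 ± 0.92 (SE) for group 1 against NAMs, -3.15 ± 0.56 (SE) for group 2 against NAMs and -5.56 ± 0.86 (SE) for group 1 against group 2. These contrasts share samples and are not independent of each other. With the cortex score as a covariate, the log2 FC of ENPP2 for PPGLs against NAMs was -1.11, and that for group 1 against group 2 was -0.88. The score itself differs between the groups, so this fit also takes out part of the difference between them.

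**Figure D1:**
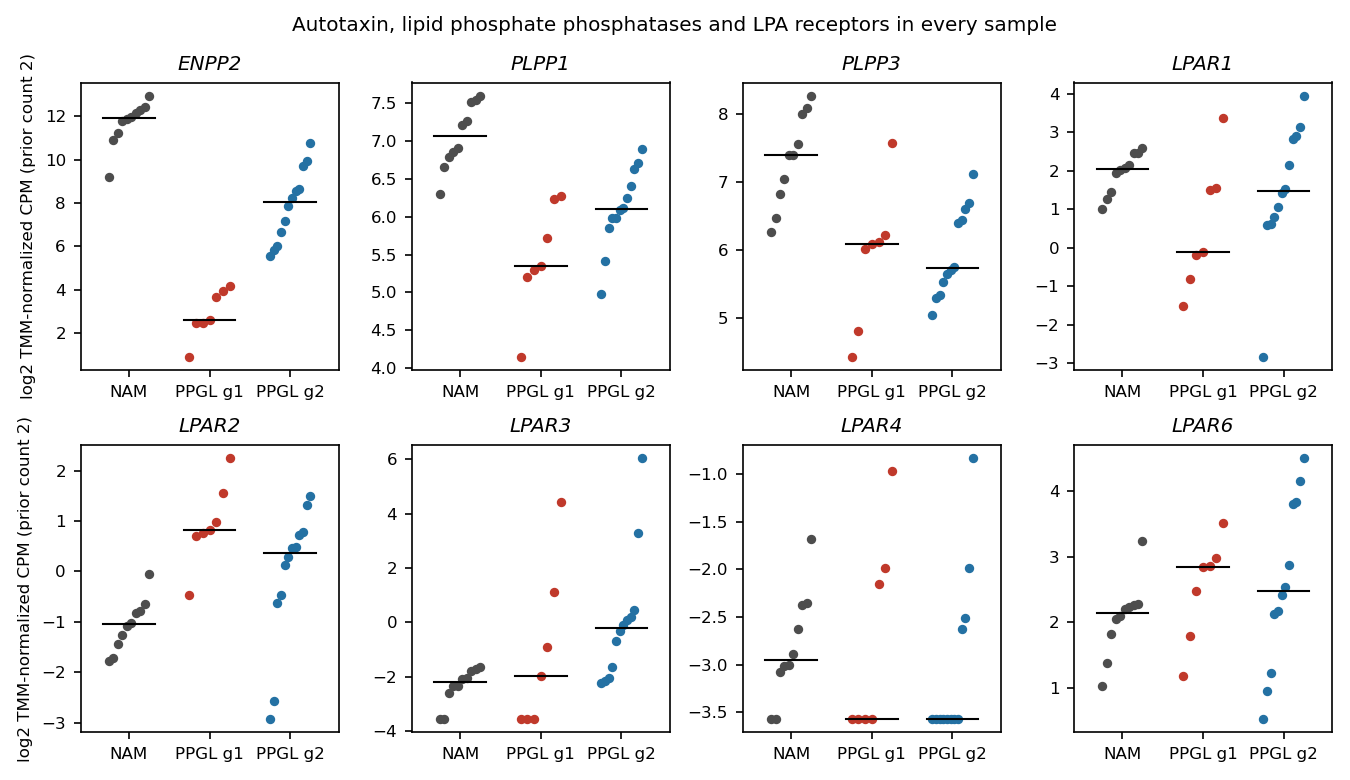
Level of each of the 8 genes in every sample, on a log2 scale of normalized CPM (prior count 2), by group (NAM, n = 10; PPGL g1, PPGL group 1, n = 7; PPGL g2, PPGL group 2, n = 12). Each point is 1 sample, ordered by level within its group, the line is the group median, and each panel has its own vertical axis. ENPP2 of group 1 lies between 1.81 and 18.0 CPM, below all other samples, and LPAR3 is high in a few tumors only.

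The choice of ENPP2 did not use how its level varied from sample to sample within a group, so its relation to the marker scores could be tested there. For 7 genes, 8 marker lists and 3 groups, 168 relations were tested by two-sided permutation of Pearson's r and of Spearman's rho, with Benjamini-Hochberg adjustment over the 168. By Pearson's r, 2 of them passed an adjusted p of 0.05, and 22 had an unadjusted p below it; by Spearman's rho none passed. ENPP2 rose with the cortex score in PPGL group 2, with r = 0.867 (n = 12, permutation p = 2e-04, adjusted p = 0.0202) and rho = 0.818 (permutation p = 0.00196, adjusted p = 0.0933). Without tumors 7 and 10, the farthest from the median score, r was 0.869 but the adjusted p was 0.112 with the 10 tumors left, by permutation, so it no longer passed. In PPGL group 1, r was 0.875 (n = 7, exact permutation p = 0.0121, adjusted p = 0.226) and rho 0.964 (exact permutation p = 0.00278, adjusted p = 0.0933), and r was 0.795 without tumors 4 and 6. In NAMs, r was 0.682 (n = 10, permutation p = 0.0221, adjusted p = 0.267) and rho 0.721 (permutation p = 0.0240, adjusted p = 0.288), and r was 0.615 without NAM 4 and NAM 5. The relation thus had the same sign in all 3 groups and passed the correction in 1 of them, by r alone.

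With the chromaffin markers, ENPP2 went opposite ways in the groups. In NAMs r was -0.764 (n = 10, permutation p = 0.0138, adjusted p = 0.232) and rho -0.903 (permutation p = 0.00067, adjusted p = 0.0596), and r was -0.879 without NAM 3 and NAM 4. In PPGL group 1 r was 0.771 (n = 7, exact permutation p = 0.0363, adjusted p = 0.300) and rho 0.964 (exact permutation p = 0.00278, adjusted p = 0.0933), and r was 0.917 without tumors 5 and 7. In PPGL group 2 r was 0.126 (n = 12, permutation p = 0.690, adjusted p = 0.847) and rho 0.0769 (permutation p = 0.816, adjusted p = 0.929), and r was 0.0111 without tumors 9 and 11. With the Schwann and sustentacular score r was -0.782 in NAMs (n = 10, permutation p = 0.00542, adjusted p = 0.180), 0.714 in group 1 (n = 7, exact permutation p = 0.0700, adjusted p = 0.406) and 0.220 in group 2 (n = 12, permutation p = 0.484, adjusted p = 0.743). None of these passed the correction, and the difference between the groups was not tested.

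The adipocyte and hepatocyte lists, markers of cells known for high autotaxin or of possible admixture, were also summed: the level of the 4 adipocyte markers found was at most 75.9 CPM in NAMs, 44.2 CPM in group 1 and 71.3 CPM in group 2, led by LPL. The 4 hepatocyte markers found summed to at most 165 CPM, led by APOA1. Of 3 adipocyte markers tested, 1 (LPL) was called lower in PPGLs, with a median log2 FC of 0.02 over the 3, and both hepatocyte markers tested, APOA1 and APOH, were called lower, where 15.2% of all genes were. Within NAMs ENPP2 had r = 0.686 with the hepatocyte score (n = 10, permutation p = 0.0330, adjusted p = 0.291), and r was 0.348 without NAM 3 and NAM 4. The part of such cells in ENPP2 was not tested. ADIPOQ and ALB, which define these cells, were not analysed here.

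**Figure D2:**
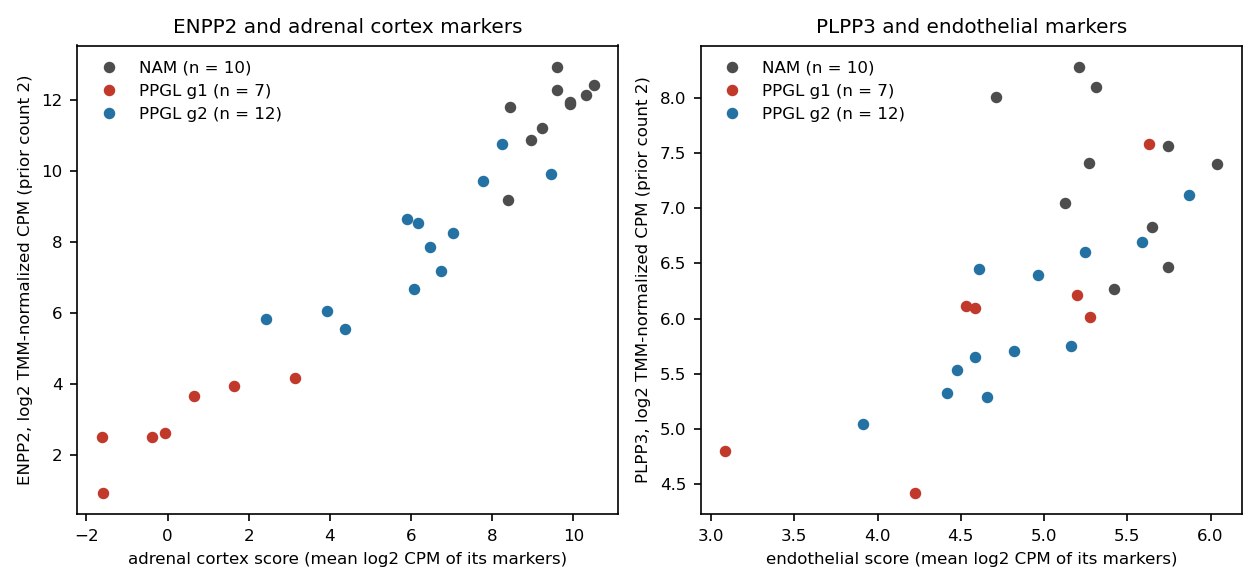
Left, ENPP2 against the cortex score, and right, PLPP3 against the endothelial score, in every sample. Both axes are log2 TMM-normalized CPM (the score is the mean over its markers), each point is 1 sample and colors mark the groups. Within PPGL group 2, r was 0.867 for ENPP2 and 0.854 for PLPP3.

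The genes most like ENPP2 were found as those with the highest Pearson's r of the deviations from the group means, over all 29 samples and 13029 named genes that passed the filter; r is a description, and the samples share their cortical content. They were ENPP7 (0.838), FFAR4 (0.834), MC2R (0.825), TNMD (0.824), FAM237B (0.821), NR0B1 (0.820), KCNK2 (0.816) and HSD11B2 (0.808). MC2R, the receptor of adrenocorticotropic hormone, and NR0B1, a nuclear receptor of the adrenal cortex, are known from steroid-producing cells and are themselves among the cortical markers. ENPP7, an intestinal alkaline sphingomyelinase of the same family as autotaxin, averaged 167 CPM in NAMs, 16.9 CPM in PPGL group 2 and 0.408 CPM in PPGL group 1.

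PLPP1 and PLPP3 are membrane phosphatases that face the outside of the cell and dephosphorylate LPA. In NAMs the lowest, median and highest levels of PLPP1 were 78.5, 135 and 194 CPM. They were 17.7, 40.8 and 77.7 CPM in PPGL group 1 and 31.4, 68.6 and 120 CPM in PPGL group 2. Every tumor of group 1 lay below every NAM, by less than 1 CPM at the closest, and 8 of 12 tumors of group 2 did. For PLPP3 the lowest, median and highest levels were 76.8, 169 and 310 CPM in NAMs, 21.4, 68.1 and 192 CPM in group 1 and 33.0, 53.0 and 139 CPM in group 2. The groups overlapped, with 13 of 19 PPGLs below every NAM and tumor 5 of group 1 above the NAM median.

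Both phosphatase genes were lower in PPGLs. The log2 FC of PLPP1 for PPGLs against NAMs was -1.12 ± 0.21 (SE), with an adjusted p of 0.000194 by edgeR's quasi-likelihood test with Benjamini-Hochberg adjustment over all genes tested, and all 19 tumors were below the NAM median. That of PLPP3 was -1.33 ± 0.27 (SE), with an edgeR adjusted p of 0.000422, and 18 of 19 tumors were below the NAM median. As the genes were assembled with results of these data known, these p-values describe and do not test the set. For PLPP1 the log2 FC was -1.53 ± 0.27 (SE) in group 1 and -0.93 ± 0.22 (SE) in group 2 against the same NAMs, and for PLPP3 it was -1.27 ± 0.38 (SE) and -1.38 ± 0.32 (SE). With the cortex score as a covariate, PLPP1 of PPGLs against NAMs was no longer called (log2 FC -0.54, edgeR adjusted p = 0.169), while PLPP3 still was (-1.39, edgeR adjusted p = 0.0177). For each tumor group alone against NAMs, neither gene was called with the covariate. Over all alternatives, the log2 FC of PLPP3 lay between -1.80 and -1.09 in group 1 and between -1.47 and -1.32 in group 2. The calls of PLPP3 were thus lost without a much smaller log2 FC. That of PLPP1 lay between -1.55 and -0.43 in group 1 and between -1.02 and -0.52 in group 2.

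PLPP3 rose with the endothelial score in PPGL group 2, with r = 0.854 (n = 12, permutation p = 0.00024, adjusted p = 0.0202) and rho = 0.860 (permutation p = 0.00071, adjusted p = 0.0596), and r was 0.710 without tumors 9 and 11, where the permutation adjusted p of 0.267 no longer passed. These tumors also had the highest fibroblast and mural and the highest leukocyte scores of the group, with which PLPP3 had r = 0.625 (permutation adjusted p = 0.267) and r = 0.636 (permutation adjusted p = 0.267), so the part of each of these markers cannot be told apart. In PPGL group 1 r was 0.799 (n = 7, exact permutation p = 0.0319, adjusted p = 0.291) and rho 0.714 (exact permutation p = 0.0881, adjusted p = 0.469), and r was 0.657 without tumors 5 and 6. In NAMs r was -0.410 (n = 10, permutation p = 0.240, adjusted p = 0.584) and rho -0.382 (permutation p = 0.279, adjusted p = 0.768), and r was -0.415 without NAM 3 and NAM 7. The 10 endothelial markers summed to 543 to 1328 CPM in NAMs, 215 to 1195 CPM in group 1 and 321 to 1073 CPM in group 2, led by VWF in NAMs and by PECAM1 in both tumor groups, and 5 of the 10 were called lower in PPGLs, where 15.2% of all genes were. PLPP1 had r = 0.800 with the endothelial score in NAMs (n = 10, permutation p = 0.00530, adjusted p = 0.180), -0.0128 in group 1 (n = 7, exact permutation p = 0.977, adjusted p = 0.977) and 0.592 in group 2 (n = 12, permutation p = 0.0422, adjusted p = 0.322). In group 1 this r of PLPP1 rested on 2 tumors and was 0.817 without tumors 5 and 6. It was 0.817 in NAMs without NAM 3 and NAM 7, and 0.466 in group 2 without tumors 9 and 11. The part of endothelial cells in the lower PLPP1 and PLPP3 was not tested. The genes most like PLPP3 were SEMA7A (r = 0.881), ACKR3 (0.812) and EPHA2 (0.786), and those most like PLPP1 were PKIG (0.803), NQO1 (0.796) and FGL1 (0.789), each over 29 samples.

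LPAR1, a widely expressed receptor known from Schwann cells and oligodendrocytes, had lowest, median and highest levels of 1.91, 4.05 and 5.99 CPM in NAMs, 0.268, 0.839 and 10.2 CPM in PPGL group 1 and 0.0564, 2.70 and 15.4 CPM in PPGL group 2. The tumors spread to both sides of the NAMs, with 8 of 19 below and 5 above all of them. The log2 FC for PPGLs against NAMs was -0.06 ± 0.52 (SE), with an edgeR adjusted p of 0.937, and the sign of so small a difference turned in some alternatives.

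Within PPGL group 1, LPAR1 went with the Schwann and sustentacular score, with r = 0.920 (n = 7, exact permutation p = 0.00417, adjusted p = 0.180) and rho = 0.857 (exact permutation p = 0.0238, adjusted p = 0.288), and r was 0.712 without tumors 4 and 5. In NAMs r was 0.743 (n = 10, permutation p = 0.0153, adjusted p = 0.233) and rho 0.648 (permutation p = 0.0486, adjusted p = 0.454), with r = 0.681 without NAM 4 and NAM 10. In PPGL group 2 r was 0.502 (n = 12, permutation p = 0.0916, adjusted p = 0.437) and rho 0.538 (permutation p = 0.0743, adjusted p = 0.469), with r = 0.340 without tumors 5 and 9. None passed the correction. The genes most like LPAR1 over the 29 samples were MFSD2A (r = 0.878), SORCS2 (0.865) and LGI4 (0.837), the last a secreted protein of Schwann cell development.

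LPAR6, a receptor known for its role in hair growth, had lowest, median and highest levels of 1.95, 4.36 and 9.37 CPM in NAMs, 2.18, 7.10 and 11.3 CPM in PPGL group 1 and 1.35, 5.50 and 22.6 CPM in PPGL group 2. The ranges overlapped throughout, and 13 of 19 tumors were above the NAM median. Its log2 FC for PPGLs against NAMs was 0.79 ± 0.38 (SE), with an edgeR adjusted p of 0.101, which did not pass the threshold of 0.05. The genes most like LPAR6 were ADAMTSL5 (r = 0.771), TGFB1 (0.746) and TMUB2 (0.745), over the 29 samples.

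LPAR2, a receptor that couples to several G protein families, was low in all samples and higher in most tumors. Its lowest, median and highest levels were 0.208, 0.398 and 0.877 CPM in NAMs, 0.642, 1.69 and 4.67 CPM in PPGL group 1 and 0.0470, 1.21 and 2.74 CPM in PPGL group 2. All but 1 tumor of group 1 and 8 of 12 of group 2 were above every NAM, whereas tumors 9 and 10 of group 2, with 1 and 2 counts, were below every NAM. The log2 FC for PPGLs against NAMs was 1.85 ± 0.45 (SE), with an edgeR adjusted p of 0.0021. It was 2.30 ± 0.51 (SE) for group 1 and 1.49 ± 0.46 (SE) for group 2 against the same NAMs. LPAR2 reached the 0.437 CPM of the low-count filter in 17 of 19 tumors and 4 of 10 NAMs, and so passed it through the tumors. Without the filter the log2 FC for PPGLs against NAMs was 1.83 (edgeR adjusted p = 0.00441). With the cortex score as a covariate the log2 FC was 0.92 and the edgeR adjusted p 0.218. In NAMs LPAR2 lay near the limit of the depth, with 111 counts summed over the 10 libraries. The genes most like LPAR2 were MAST1 (r = 0.735), OPLAH (0.721) and XYLB (0.705), over the 29 samples.

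LPAR3, a receptor with a more restricted distribution, was near the floor in NAMs, with 35 counts over the 10 libraries and 3 counts or fewer in 6 of them. Its lowest, median and highest levels were 0, 0.134 and 0.236 CPM in NAMs, 0, 0.168 and 21.7 CPM in PPGL group 1 and 0.127, 0.781 and 66.2 CPM in PPGL group 2. High levels were found in a few tumors: tumor 7 of group 2 at 66.2 CPM, tumor 5 of group 1 at 21.7 CPM, tumor 8 of group 2 at 9.62 CPM and tumor 3 of group 1 at 2.09 CPM. Of these, tumors 3 and 5 of group 1 and tumor 7 of group 2 were the libraries with the 3 lowest TH levels. Tumor 8 of group 2 went the other way, with TH at 3133 CPM, inside the range of the NAMs. The part of TH alone in LPAR3 was not tested. With the chromaffin score, LPAR3 had r = -0.774 in group 1 (n = 7, exact permutation adjusted p = 0.291). That r was -0.292 in group 2 (n = 12, permutation adjusted p = 0.672) and 0.413 in NAMs (n = 10, permutation adjusted p = 0.569), and none passed the correction. In the other tumors LPAR3 was between 0 and 1.27 CPM, and 3 tumors of group 1 had no count.

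LPAR3 passed the low-count filter only through the tumors, with 10 of 19 at or above the 0.437 CPM the filter asks for and no NAM, so its direction was set by the filter and its difference is given as a description. Its log2 FC for PPGLs against NAMs was 5.36 ± 1.36 (SE). LPAR3 was no longer called by the Mann-Whitney U-test or with the cortex score as a covariate. Over the alternatives that gave a value, the log2 FC of LPAR3 was 3.01 to 5.43. Without tumor 3 or 5 of group 1, or without tumor 7 or 11 of group 2, it no longer passed the filter and was not tested. For group 1 against NAMs the log2 FC was 4.69 ± 1.41 (SE) with all 7 tumors, 1.73 without tumor 5 and -0.06 without tumors 3 and 5. For group 2 against NAMs it was 5.64 ± 1.40 (SE) with all 12 tumors and 3.40 without tumor 7. The genes most like LPAR3 were CCDC126 (r = 0.795), SPP1 (0.755) and DENND2D (0.732), over the 29 samples.

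LPAR4 did not pass the filter and was not tested. Over the 29 samples it had 18 counts in NAMs, 17 in PPGL group 1 and 16 in PPGL group 2, and its highest level was 0.477 CPM, so a difference was not detectable at this depth.

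Between genes, levels were compared as CPM per kb of exon length. ENPP2 averaged 1094 ± 572 CPM per kb (SD, n = 10) in NAMs and exceeded the sum of PLPP1 and PLPP3 in all 10. In PPGL group 2 it averaged 123 ± 142 CPM per kb (SD, n = 12) and exceeded that sum in 8 of 12 tumors. In PPGL group 1 it averaged 2.59 ± 1.69 CPM per kb (SD, n = 7) and lay below PLPP1 and below PLPP3 in each of the 7 tumors. PLPP1 and PLPP3 themselves, at 61.6 ± 17.8 and 71.4 ± 32.1 CPM per kb in NAMs (SD, n = 10), did not differ beyond their spread, and PLPP3 was the higher one in 5 of 10 NAMs.

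Among the receptors, LPAR6 had the highest level per kb in 9 of 10 NAMs, 6 of 7 tumors of group 1 and 9 of 12 of group 2. LPAR1 had it in 1 NAM and 1 tumor of group 2, and LPAR3 in 1 tumor of group 1 and 2 of group 2. The order in NAMs was LPAR6 (4.26 ± 1.92 CPM per kb), LPAR1 (2.51 ± 0.86), LPAR2 (0.182 ± 0.0842), LPAR3 (0.0860 ± 0.0563) and LPAR4 (0.0622 ± 0.0612), each with SD and n = 10. LPAR3 and LPAR4 did not differ beyond their spread. As the models of LPAR4 and LPAR6 hold coding sequence only, their values per kb are less comparable with those of the other receptors.

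Counted together, 2 of the 7 genes tested were called higher in PPGLs than in NAMs (LPAR2 and LPAR3) and 3 lower (ENPP2, PLPP1 and PLPP3) at an adjusted p below 0.05, where 22.3% of the 14766 genes tested were called higher and 15.2% lower. As the filter had set the direction of LPAR3, only LPAR2 is counted as higher here and in the comparisons of each tumor group with NAMs, as a description. LPAR2 also passed the filter through the tumors, with 4 of 10 NAMs at its cutoff. In PPGLs against NAMs its call was kept without the filter but lost with the cortex covariate. The median log2 FC of the 7 was -0.06, against 0.13 over all genes. No gene of the set separated all PPGLs from all NAMs, which 0.481% of genes did with lower and 0.223% with higher levels in PPGLs. For group 1 against NAMs the counts were again 2 and 3, where 21% and 14.1% of 15201 genes were called, and ENPP2 and PLPP1 were without overlap, against 4.2% of genes with lower and 2.11% with higher levels. For group 2 against NAMs they were 2 and 3, where 18.4% and 14.5% of genes were called, and none was without overlap, against 1.36% and 0.987% of genes. The 3 contrasts share the 10 NAMs, and ENPP2 was chosen for its place among the lower genes. Under the cortex covariate, 0 of the 7 were called higher and 1 lower in PPGLs against NAMs, and of all 14766 genes 1344 were called higher and 1106 lower, against 3295 and 2246 without it.

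Between PPGL group 1 and PPGL group 2, none of the 7 genes was called higher by edgeR and 1 lower, ENPP2, at an adjusted p below 0.1, where 3.97% of the 14666 genes tested were called higher and 2.95% lower. The other 6 genes had log2 FCs from -0.93 ± 1.46 (SE) for LPAR3 to 0.81 ± 0.54 (SE) for LPAR2, with edgeR adjusted p-values from 0.252 for PLPP1 to 0.890 for PLPP3. The alternative tests called none of these 6 either. As ENPP2 was chosen for this difference, its call is not compared with the other 6 genes. With the cortex score as a covariate, ENPP2 was no longer called (log2 FC -0.88). For the other 6 genes, a p above the threshold does not show equal levels.

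The genes of the set varied together only in part. Over the 29 samples, the r of deviations from the group means, given as a description, was highest for LPAR1 with PLPP1 (0.645), LPAR6 with PLPP1 (0.521) and LPAR1 with LPAR6 (0.509), and lowest for LPAR2 with PLPP1 (-0.445). ENPP2 with PLPP1 had r = 0.408, with PLPP3 0.210 and with LPAR1 0.109.

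Other genes of LPA handling and signaling were taken from 8 lists with 71 genes, of which 65 were found by name and 56 tested between PPGLs and NAMs. Of these, 6 were called higher and 17 lower in PPGLs, where 22.3% and 15.2% of all genes were, with a median log2 FC of -0.07 against 0.13 over all genes. Between group 1 and group 2, 57 were tested, and 0 were called higher and 6 lower, where 3.97% and 2.95% of all genes were, with a median log2 FC of -0.10 against 0.04.

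Of 8 other phospholipases and related enzymes that make LPA or its precursors, 5 were tested, 1 was called higher and 2 lower in PPGLs (22.3% and 15.2% of all genes). PLD1, a phospholipase D, averaged 102 ± 59.3 CPM in NAMs (SD, n = 10), 2.54 ± 0.764 CPM in group 1 (SD, n = 7) and 18.7 ± 16.0 CPM in group 2 (SD, n = 12). Its log2 FC for PPGLs against NAMs was -3.00 ± 0.52 (SE, edgeR adjusted p = 7e-05), and 16 of 19 tumors were below every NAM. GDPD1, a glycerophosphodiester phosphodiesterase with lysophospholipase D activity, was higher in PPGLs by a log2 FC of 1.02 ± 0.18 (SE, edgeR adjusted p = 0.000101), and 17 of 19 tumors were above every NAM.

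Of 6 other ENPP family genes, none was called higher by edgeR and 2 lower in PPGLs (22.3% and 15.2% of all genes), ENPP7 (log2 FC -3.94 ± 0.78, SE, edgeR adjusted p = 0.000287) and ENPP1 (-1.95 ± 0.52, SE, edgeR adjusted p = 0.00434), the latter an enzyme that makes pyrophosphate outside cells. ENPP1, ENPP6 and ENPP7 were the 3 genes of this list called lower in group 1 than in group 2, where 2.95% of all genes were.

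Of 11 other lipid phosphatases and relatives, 9 were tested, 2 called higher and 3 lower (22.3% and 15.2% of all genes). PLPP7 was higher (log2 FC 1.05 ± 0.32, SE, edgeR adjusted p = 0.0105), and ACP6, a mitochondrial LPA phosphatase, was lower (-1.65 ± 0.53, SE, edgeR adjusted p = 0.0145), with 1 tumor above every NAM. Among 5 genes of LPA synthesis inside the cell, 2 were called lower (15.2% of all genes), with GPAT3, a glycerol-3-phosphate acyltransferase, at -1.89 ± 0.48 (SE, edgeR adjusted p = 0.00264). Among 9 acyltransferases and lysophospholipases tested, 1 was higher and 3 lower (22.3% and 15.2% of all genes), with AGPAT4 at -1.51 ± 0.17 (SE, edgeR adjusted p = 3.66e-07; 18 of 19 tumors below every NAM) and AGPAT3 at -1.03 ± 0.20 (SE, edgeR adjusted p = 0.000304).

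Downstream of the receptors, GNA12, a G protein subunit, was lower in PPGLs by a log2 FC of -1.30 ± 0.23 (SE, edgeR adjusted p = 8.86e-05). Of 4 other lysophospholipid receptors tested, S1PR2 was called lower (15.2% of all genes), with a mean of 8.72 ± 4.40 CPM in NAMs (SD, n = 10) and 4.34 ± 2.79 CPM in PPGLs (SD, n = 19, edgeR adjusted p = 0.0335). Of 7 YAP and SRF targets tested, 2 were called higher (22.3% of all genes), with CCN1, a matricellular protein, at 1.80 ± 0.66 (SE, edgeR adjusted p = 0.0323), where 9 of 19 tumors were above and 3 below every NAM. Of 11 fibroblast and mural markers, 6 were also called higher in PPGLs (22.3% of all genes), with a median log2 FC of 1.41, and their part in these targets was not tested. The counts over the lists moved with the cortex covariate, under which 2 of the pathway genes were called higher and 3 lower in PPGLs, with the calls over all genes reduced as given above.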

How the data were processed

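The unit is the raw exon count per Ensembl gene that the authors deposited, from STAR alignments to CanFam3.1. The handling of reads that map to several genes is not given in the sources used here. Genes were matched by name. The genes and lists were chosen with earlier results of these data known. Counts of all genes were filtered by edgeR's filterByExpr (minimum count 10, minimum total 15), normalized by TMM and tested by edgeR's quasi-likelihood F test (prior count 0.125), with Benjamini-Hochberg adjustment over all genes tested, at 0.05 against NAMs and 0.1 between the PPGL groups. Group 1 and group 2 were compared with NAMs in 1 fit of all 29 samples. The test gives no SE of a log2 FC, so each SE was derived as the absolute log2 FC divided by the square root of F. Log2 levels used a prior count of 2, and permutation tests were exact for 7 samples and used 100000 draws otherwise. Pathway genes were named where they were called in PPGLs against NAMs with an absolute log2 FC over 1, up to 4 per list and direction; likeness named 8 genes for ENPP2 and 3 for each other gene tested. No pair of libraries of a group was identical. The steps were tested on simulated data. Software was Python 3.11.15 with numpy 2.4.6 and matplotlib 3.10.9, and R 4.3.3 with DESeq2 1.42.0, edgeR 4.0.16 and limma 3.58.1.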

Additional observations from a re-analysis of the deposited data

Results flagged for a closer look

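In groups of 10 NAMs and 7 tumors of PPGL group 1, the sample farthest from its neighbours was compared with Dixon's critical value. With 7 genes in both groups this makes 14 groups. Chance alone marks about 1 in 20 only where values are normally distributed. The values here were CPM without a log, and every sample marked was the highest of its group. Skewed values are marked more often, so the number marked is not compared with chance. Tumor 4 of PPGL group 1 had the highest LPAR1, 10.2 CPM against 2.85 CPM in the next tumor. NAM 3 had the highest LPAR2 of the NAMs, 0.877 CPM against 0.551 CPM, from 23 counts. Tumor 5 of PPGL group 1 had the highest LPAR3, 21.7 CPM against 2.09 CPM in the next tumor, and also the highest PLPP3, 192 CPM against 74.2 CPM. NAM 10 had the highest LPAR6 of the NAMs, 9.37 CPM against 4.79 CPM. Tumor 4 also had the highest Schwann and sustentacular score of its group, 4.61, and tumor 5 the lowest chromaffin score, 5.52, and the highest endothelial score, 5.63; the part of these in the values was not tested.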

How the results depend on the processing

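Of 554 alternative values, 478 kept their direction and side of the threshold, or stayed within 1.5 times the count. The fit with the cortex score as a covariate moved many results; the score differs between the groups, so part of each contrast goes with it. Under it the genes of the set called higher and lower were 0 and 1 in PPGLs against NAMs, 0 and 0 in group 1 and in group 2 against NAMs, and 0 lower between the groups, and the pathway genes 2 and 3, 0 and 0, 2 and 2, and 1 lower. Over all genes this fit called 1344 and 1106 of 14766 in PPGLs, 14 and 4 of 15201 in group 1, 828 and 557 in group 2, and 13 and 96 of 14666 between the groups, so nothing about the set is read from these. The log2 FC then turned to 0.63 for LPAR1 in PPGLs against NAMs, to 0.0128 for LPAR1 and -5.62 for LPAR3 in group 1 against NAMs, and between the groups to -0.56 for LPAR2, 0.0521 for PLPP1 and -0.14 for PLPP3. In each comparison with NAMs, 1 gene of the set was called higher with a filter of at least 1 CPM, which LPAR3 did not pass; so it was with the Mann-Whitney U-test for PPGLs and for group 1, and with DESeq2's Wald test for group 1. Pathway genes called higher in PPGLs were 10 without a low-count filter, which tested more genes. Pathway genes called between the groups were 1 higher with DESeq2's Wald test and 3 lower with the Mann-Whitney U-test, and 5 were higher in group 1 against NAMs with the latter; the cause was not tested.

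The sample numbers count different dogs and do not pair samples: the r of deviations of same-numbered samples was -0.226 to 0.242, and 2 of 10 NAMs matched their own number best in group 2 and none in the other pairs. With the number as a replicate block, the genes of the set called higher in group 1 against NAMs were 1, the pathway genes called higher in group 1 and group 2 against NAMs 4 and 5, and those lower between the groups 1, while over all genes the calls higher fell to 1921 and 1987 of 15201 and those lower between the groups to 37 of 14666, fewer than with the cortex covariate, and the log2 FC turned to -0.11 for LPAR1 in group 2 against NAMs and to 0.0563 for LPAR6 between the groups.

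Chosen after seeing the data, tumors 3, 5 and 7 of group 1 and tumors 7 and 11 of group 2 were left out. Genes of the set called higher in PPGLs against NAMs were then 1 to 2, those in group 1 against NAMs 1 to 2 and pathway genes in group 1 against NAMs 5 to 6. Between the groups, where each tumor of group 1 was also left out in turn, pathway genes called higher were 0 to 1, and the log2 FC was -3.91 to 1.30 for LPAR3, positive only without tumor 7 of group 2, and -0.32 to 0.30 for PLPP3, negative only without tumor 5 of group 1. For LPAR1 it was 0.0126 in PPGLs against NAMs without tumor 5 of group 1, and -0.17 to 0.27 in group 2 against NAMs, negative without tumor 11. Without tumors 3 and 5 together it was 0.0382 for LPAR1 in PPGLs against NAMs, -0.43 for PLPP3 between the groups and -0.0560 for LPAR3 in group 1 against NAMs. LPAR3 did not pass the filter, and so gave no value, in PPGLs against NAMs without tumor 3, tumor 5 or both of group 1, or without tumor 7 or 11 of group 2. The r of ENPP2 with the cortex score in group 2 was 0.869 without the 2 samples farthest from the median, where fewer samples left an adjusted p of 0.112; that of PLPP3 with the endothelial score was 0.710, with a permutation adjusted p of 0.267, in the same test, chosen after seeing the data. For ENPP2, DESeq2's size factors, a prior count of 0.5 and the summed CPM as score kept the side of the threshold by r, whereas by rho the adjusted p was 0.0933.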
